A study of Mus musculus with 48 samples.

Results

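*Apoe*, *Trem2* and 8 genes for lipid handling in phagocytes (*Tyrobp*, *Lpl*, *Abca1*, *Abcg1*, *Apoc1*, *Plin2*, *Soat1* and *Ch25h*) were followed through the first week after permanent middle cerebral artery occlusion (MCAO) in the mouse. The genes were chosen by name, with earlier results of these data known, and each was matched to its identifier by symbol. They are 10 of the 46983 genes counted and 10 of the 19970 genes that had enough counts to be tested. The 48 libraries fall into 11 groups, an uninjured control (4 libraries) and sham and MCAO mice at 3 h, 12 h, 24 h, day 3 and day 7. Each sham group holds 4 libraries and each MCAO group 5, except the MCAO group at 24 h, which holds 4. All groups are brain tissue of wild-type C57Black/6 males aged 3 months, as the study's methods describe them, and no group carries a transgene. In the MCAO groups the artery was coagulated and cut, a model that leaves a small cortical infarct, and sham mice had the operation without the coagulation. The sources differ on the tissue taken, which the labels and the methods give as cortical tissue and the series description as forebrain hemispheres, and the share of lesioned tissue in a library is not known. Within bulk tissue, fewer cells of a type and less RNA per cell cannot be told apart.

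Apolipoprotein E, made in the brain mainly by astrocytes and, after injury, also by microglia, packs cholesterol and phospholipid into particles that other cells take up. TREM2 is a lipid-sensing receptor of microglia and macrophages that signals through the adaptor DAP12, the product of *Tyrobp*, and apolipoprotein E is among its ligands. Phagocytes that have taken up myelin and dead cells must store the cholesterol as ester in lipid droplets or pass it on through the ABC transporters, many of which answer to the oxysterol receptors LXR.

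Each library held between 1522668 and 2826735 counts on genes. The study gives its bulk replicates as mice, but the labels do not tie a library to an animal, so the p-values measure the spread between these libraries. Markers of neurons were present in every library, with a summed level between 4206 and 8537 CPM (counts scaled to an equal library size after TMM normalization, the unit of all levels here). Replicate C of the MCAO group on day 7 stood apart from the other 4. The summed level of 7 markers of infiltrating monocytes was 4474 CPM in it and 127.5 to 244.9 CPM in the others, and that of 6 fibroblast markers was 5491 CPM against 169.6 to 505.7 CPM. On day 3, replicate A of the MCAO group was the lowest in the monocyte markers, at 64.1 CPM against 332.1 to 1169 CPM. Calls of the 10 genes on days 3 and 7 are also given without these libraries where they change.

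The bases in front of the start site are shown for 3 genes as context for the levels that follow. The RefSeq promoter table (GRCm38.p6) held 6 of the 10 genes, and 250 bases upstream of the start are printed here for *Apoe* and *Trem2*, the pair around which the list is built, and for *Abca1*, the cholesterol exporter that was called against sham on day 7 in all alternatives run. All are written 5′ to 3′ on the strand of the gene, and capitals mark a match to a searched motif. The *Apoe* window is chr7:19699189-19699438 (minus strand), that of *Trem2* is chr17:48346151-48346400 (plus strand) and that of *Abca1* is chr4:53159896-53160145 (minus strand).
Apoe: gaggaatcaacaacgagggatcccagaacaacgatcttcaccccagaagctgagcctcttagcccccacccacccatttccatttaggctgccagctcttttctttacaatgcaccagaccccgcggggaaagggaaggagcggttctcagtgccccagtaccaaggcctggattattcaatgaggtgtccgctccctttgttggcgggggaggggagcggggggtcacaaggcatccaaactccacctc
Trem2: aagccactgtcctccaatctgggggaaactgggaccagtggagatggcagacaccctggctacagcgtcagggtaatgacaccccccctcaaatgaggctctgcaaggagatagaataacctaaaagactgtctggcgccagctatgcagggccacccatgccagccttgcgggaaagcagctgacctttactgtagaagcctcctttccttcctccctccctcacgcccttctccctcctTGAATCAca
Abca1: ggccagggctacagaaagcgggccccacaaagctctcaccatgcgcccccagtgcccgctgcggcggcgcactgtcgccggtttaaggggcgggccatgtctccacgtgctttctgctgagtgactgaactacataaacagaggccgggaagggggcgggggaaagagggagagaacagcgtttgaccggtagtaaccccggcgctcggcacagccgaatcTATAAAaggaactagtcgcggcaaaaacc
The motifs searched on both strands were the LXR element, a direct repeat of AGGTCA with a spacer of 4 bases, which 0.015% of all 32851 promoters in the table hold, the PU.1 core GAGGAAGT (2.44%), the AP-1 element TGANTCA (6.75%), the C/EBP core TTGCNNAA (9.56%), the lysosomal E-box TCACGTGA (0.785%) and the TATA box TATAAA (12.4%). The *Trem2* window held an AP-1 element at bases -9 to -3 from the start. The *Abca1* window held a TATA box at bases -29 to -24, and the *Apoe* window held none of these motifs, while the window of another start listed for *Apoe*, not printed, held a TATA box. The promoter of *Ch25h* held a C/EBP core at -112 to -105 and a TATA box at -151 to -146. None of the 6 genes had the strict LXR element, which says only that these letters are not in this window.

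Over all 10 genes, 0 were called at 3 h, 12 h and 24 h, 4 rose on day 3 and 8 rose on day 7 in MCAO against sham, and none fell. The day 7 calls depended on a spread estimated over all 11 groups. With only the groups compared in the fit, *Abca1* and *Apoc1* were called on day 7 and *Apoe*, *Lpl*, *Trem2*, *Soat1*, *Plin2* and *Tyrobp* were not (edgeR adjusted p from 0.0143 to 0.0553), and on day 3 *Abca1* was not (adjusted p = 0.0105). The share of all genes called in that smaller fit, against sham or control, is not given here. A gene was called in edgeR's quasi-likelihood test at a Benjamini-Hochberg adjusted p under 0.01, over all genes tested, with an absolute log2 fold change over 0.58. The share of all tested genes called was 0.11% at 3 h (0.0901% higher and 0.02% lower), 0.411% at 12 h (0.346% and 0.0651%), 0.0901% at 24 h (0.0801% and 0.01%), 4.02% on day 3 (3.76% and 0.26%) and 3.5% on day 7 (2.07% and 1.43%). The 4 genes of day 3 were *Tyrobp*, *Trem2*, *Plin2* and *Abca1*, and on day 7 *Apoe*, *Apoc1*, *Lpl* and *Soat1* joined them. The median log2 fold change of the 10 genes was 0.03 at 3 h, 0.15 at 12 h, 0.42 at 24 h, 1.18 on day 3 and 2.49 on day 7, while the median over all tested genes lay between 0.00 and 0.06 at these times. At an unadjusted p under 0.05, 1 of the 10 genes passed at 3 h (*Ch25h*), 1 at 12 h (*Plin2*) and 2 at 24 h (*Lpl* and *Tyrobp*), and DESeq2 also called 0 at these times. The libraries of MCAO lay wholly above those of sham for 0 of the 10 genes at 3 h and 12 h, 2 at 24 h, 3 on day 3 and 8 on day 7, while 2.27%, 2.03%, 3.73%, 4.33% and 5.38% of all tested genes did so. They lay wholly below for 1 gene at 24 h (*Apoe*) and for 0 at the other times, against 1.31%, 1.27%, 2.1%, 2.81% and 5.1% of all genes.

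**Figure D1:**
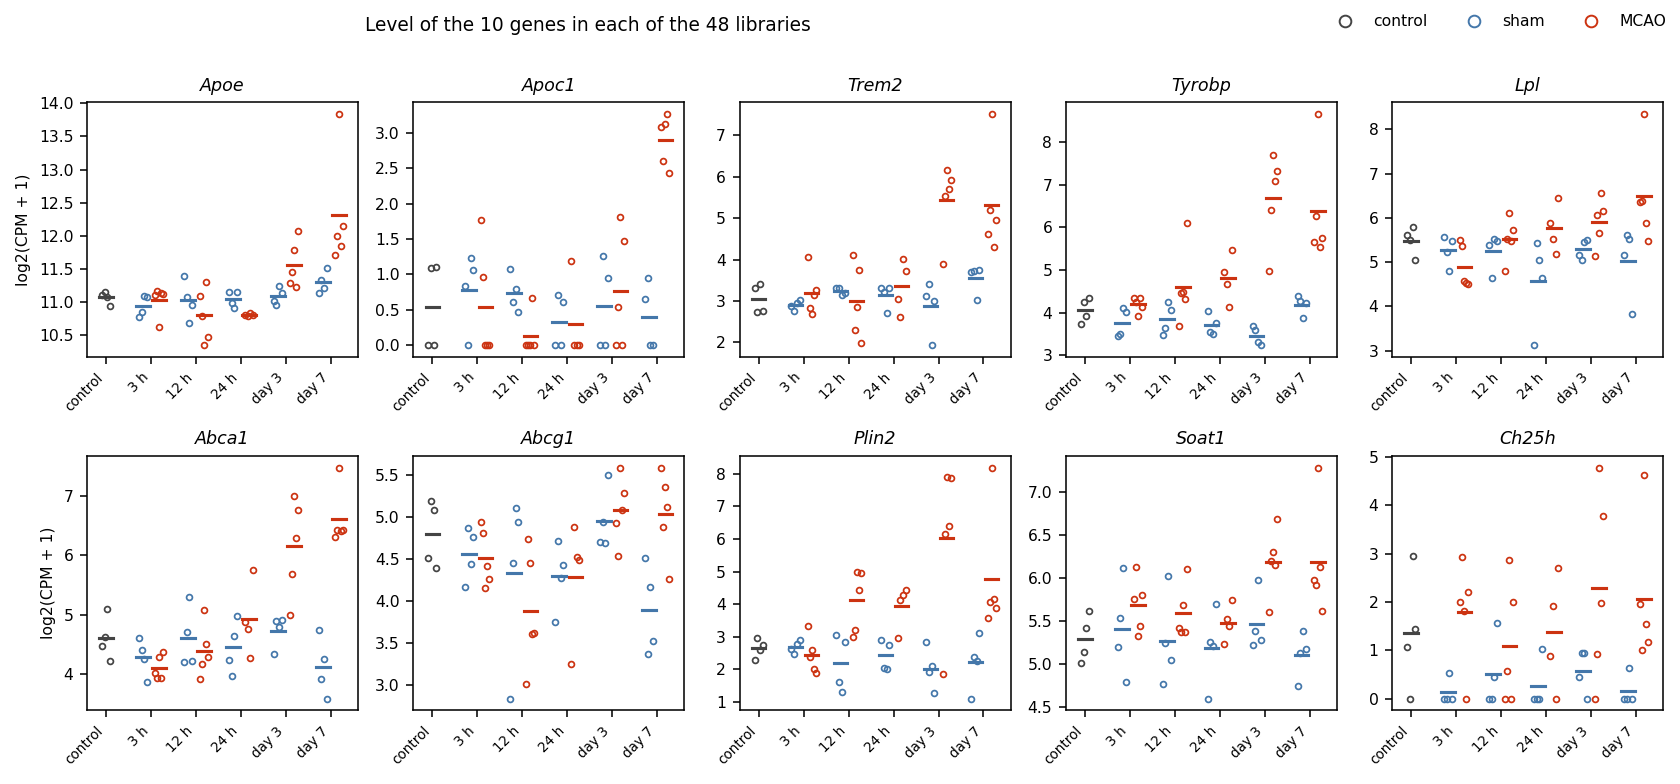
Level of the 10 genes as log2(CPM + 1) in each of the 48 libraries (open circles), by time after surgery, for control (grey), sham (blue) and MCAO (red), with the mean of each group as a bar. The red circles leave the blue on day 3 for *Trem2*, *Tyrobp*, *Abca1* and most of *Plin2* and on day 7 for all genes but *Lpl* and *Abcg1*, and 1 library stands high on day 7.

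*Apoe* (ENSMUSG00000002985.15, chr7:19696109-19699188, minus strand) was flat for the first day and rose late. Its levels over the 24 control and sham libraries lay between 1648 and 2940 CPM (median 2176 CPM). At 24 h the MCAO libraries were at 1798, 1769, 1833 and 1789 CPM and the sham libraries at 2279.8, 2041, 1935 and 2281 CPM. All MCAO libraries at 24 h thus lay below all shams, but the log2 fold change of -0.25 ± 0.25 (SE, edgeR adjusted p = 0.816) did not pass. On day 3 the MCAO libraries were at 2493, 2817, 3530, 2411 and 4318 CPM against 2080.2, 1985, 2425 and 2256 CPM in sham. A single MCAO library lay below the highest sham, and the log2 fold change was 0.51 ± 0.24 (edgeR adjusted p = 0.207). On day 7 the MCAO libraries were at 3369, 4095, 14649, 3673 and 4559 CPM, and the shams at 2248, 2581, 2389 and 2940 CPM. Every MCAO library lay above every sham on day 7, and replicate C was far above the other 4. The rise was called, with a log2 fold change of 1.26 ± 0.25 (edgeR adjusted p = 0.000756), and was 0.63 (adjusted p = 0.0196, not called) without replicate C.

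Against the control libraries (2220.1, 2289.7, 2167 and 1975 CPM), *Apoe* on day 7 was higher by 1.49 ± 0.25 on the log2 scale (edgeR adjusted p = 0.000163). In this comparison the call held without replicate C, at 0.86 (adjusted p = 0.00233). In the order of its group means, *Apoe* was lowest in MCAO at 24 h (1797 ± 26.8 CPM, SD, n = 4) and highest in MCAO on day 7 (6069 ± 4818 CPM, n = 5), and each neighbouring pair of groups in that order overlapped.

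*Apoc1* (ENSMUSG00000040564.13, chr7:19689481-19692660, minus strand) encodes a small apolipoprotein of the same lipoproteins and lies 3448 bases from *Apoe*. It was close to absent until day 3 and appeared on day 7. The 24 control and sham libraries held between 0 and 1.38 CPM, which is at most 3 counts. On day 7 the MCAO libraries held 13, 10, 13, 18 and 7 counts and the shams 1, 2, 0 and 0 counts. All 5 MCAO libraries were above all shams and lay close together, replicate C included. The MCAO counts of 61 against 3 give a ratio of 17.8 at equal depth (95% interval 5.80 to 88.5, exact binomial, for counting error only), and 17.2 (5.53 to 86.2) without replicate C. The log2 fold change was 3.94 ± 1.01 (edgeR adjusted p = 0.00845) against sham and 3.43 ± 0.97 (adjusted p = 0.0322, not called) against control. The call of *Apoc1* was narrow, and leaving out any of 8 of the 9 libraries (each but MCAO replicate E) ended it, with log2 fold changes from 3.52 to 4.82 and adjusted p from 0.0109 to 0.0523. At 12 h, 1 count was found in the 5 MCAO libraries and 6 in the 4 shams, a difference that did not pass (log2 fold change -2.18 ± 1.28, edgeR adjusted p = 0.443). In the order of group means, the MCAO group on day 7 (6.67 ± 1.83 CPM, SD, n = 5) did not overlap with the next, that on day 3 (0.942 ± 1.13 CPM).

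*Apoe* and *Apoc1* belong to a cluster of apolipoprotein genes on the minus strand of chromosome 7, and the other 2 of the cluster, *Apoc2* and *Apoc4*, were nearly silent outside the late MCAO groups. *Apoc2* (chr7:19671579-19677941) encodes the cofactor of lipoprotein lipase. Its counts on day 3 were 0, 26, 56, 11 and 93 in MCAO and 1, 0, 0 and 0 in sham, and on day 7 they were 2, 0, 69, 1 and 5 in MCAO and 0 in each sham. High counts were thus found in 4 libraries on day 3 and in replicate C alone on day 7. *Apoc2* was called on day 3 (log2 fold change 6.68 ± 1.46, edgeR adjusted p = 0.00247) and on day 7 (adjusted p = 0.00996). On day 7 its level was at least 22.4-fold higher than a floor of 3 counts over the sham group, and at least 2.86-fold higher without replicate C, where it was not called (adjusted p = 0.18). *Apoc4*, 141 bases from *Apoc2*, had 7 counts in MCAO on day 3, 11 on day 7 and 0 in all other groups, and was not called. *Tomm40*, on the other side of *Apoe* by 2124 bases and named after its values were seen, had log2 fold changes between -0.32 and 0.64 against sham and was not called at any time.

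**Figure D2:**
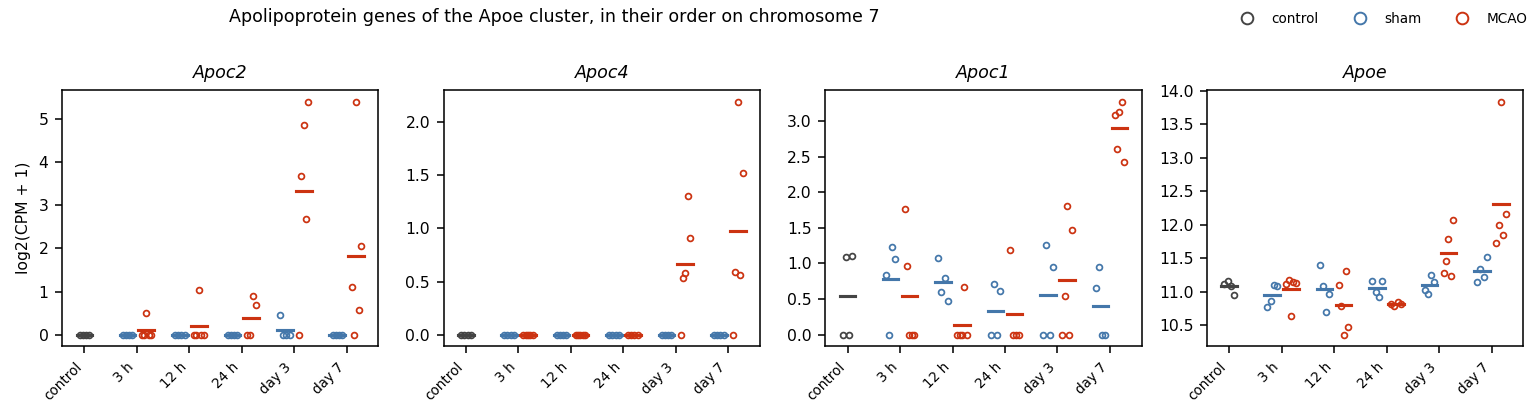
Level of the 4 apolipoprotein genes of the *Apoe* cluster as log2(CPM + 1) in each library (circles) with group means (bars), for control (grey), sham (blue) and MCAO (red). *Apoc2* and *Apoc4* are at or near 0 before day 3, *Apoc1* separates on day 7 with all 5 MCAO libraries between 4.38 and 8.64 CPM, and the high *Apoe* library on day 7 is replicate C at 14649 CPM.

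*Trem2* (ENSMUSG00000023992.14, chr17:48346401-48354147, plus strand), the lipid receptor, rose on days 3 and 7 against sham. Its 24 control and sham libraries lay between 2.80 and 12.3 CPM (median 7.97 CPM). The MCAO libraries were at 15.7, 6.14, 5.45, 7.75 and 8.66 CPM at 3 h, at 16.3, 3.88, 6.26, 12.4 and 2.98 CPM at 12 h and at 7.22, 5.14, 15.3 and 12.2 CPM at 24 h. Their spread at 12 h, from below to above the shams of the same time (7.76 to 8.94 CPM), left a log2 fold change of 0.03 ± 0.51 (edgeR adjusted p = 0.995). On day 3 the MCAO libraries were at 13.9, 45.6, 70.4, 50.8 and 59.5 CPM and the shams at 7.62, 9.69, 2.80 and 7.03 CPM. By day 7 the MCAO libraries were at 23.7, 35.6, 182.6, 18.7 and 30.1 CPM and the shams at 12.0, 12.1, 7.09 and 12.3 CPM. All MCAO libraries lay above all shams at both times, with replicate A lowest on day 3 and replicate C highest on day 7. The log2 fold change was 2.81 ± 0.49 on day 3 (edgeR adjusted p = 8.2e-05) and 2.40 ± 0.47 on day 7 (adjusted p = 0.000751). Without replicate C the day 7 value was 1.30 (adjusted p = 0.0339, not called), and without replicate A the day 3 value was 3.04 (adjusted p = 6.4e-06).

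*Tyrobp* (ENSMUSG00000030579.9, chr7:30413760-30417585, plus strand), which encodes the adaptor of TREM2 and of other myeloid receptors, followed a like course with a larger change. Its control and sham libraries lay between 8.43 and 20.03 CPM. At 24 h the MCAO libraries were at 30.2, 24.3, 16.5 and 43.4 CPM and the shams at 15.4, 10.7, 10.4 and 12.6 CPM. All 4 lay above all shams (log2 fold change 1.20 ± 0.53, edgeR adjusted p = 0.501). On day 3 the MCAO libraries were at 30.4, 83.6, 205.8, 135.3 and 159.5 CPM and the shams at 12.0, 11.1, 8.88 and 8.43 CPM. By day 7 they were at 49.0, 75.8, 402.2, 45.6 and 52.6 CPM and the shams at 20.03, 18.2, 13.6 and 17.8 CPM. The groups did not overlap at either time. The log2 fold change was 3.59 ± 0.51 on day 3 (edgeR adjusted p = 2.95e-06) and 2.84 ± 0.48 on day 7 (adjusted p = 0.000127). *Tyrobp* was called on day 7 without replicate C as well, at 1.68 (adjusted p = 0.00448). Against control the day 3 and day 7 values were 2.94 and 2.96 for *Tyrobp* and 2.68 and 2.94 for *Trem2*. All 4 were called, and these comparisons share the 4 control libraries.

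*Lpl* (ENSMUSG00000015568.15, chr8:68880491-68907448, plus strand) encodes lipoprotein lipase, which frees fatty acids from lipoprotein triglyceride. It varied widely without injury, between 7.72 and 54.2 CPM over the control and sham libraries. On day 7 the MCAO libraries were at 80.8, 83.0, 324.8, 58.1 and 43.8 CPM and the shams at 34.9, 48.1, 44.7 and 13.2 CPM. The groups overlapped through replicate E, the lowest of the MCAO libraries. The rise on day 7 was called at a log2 fold change of 1.74 ± 0.40 (edgeR adjusted p = 0.00355), but not without replicate C (0.92, adjusted p = 0.101), without sham replicate A (1.74, adjusted p = 0.0123) or without sham replicate D (1.44, adjusted p = 0.0369). At 24 h the MCAO libraries were at 57.8, 44.9, 35.6 and 86.8 CPM and the shams at 7.72, 42.3, 32.3 and 24.1 CPM, with 3 of 4 above all shams (1.07 ± 0.43, adjusted p = 0.409). *Lpl* on day 3 differed by 0.71 ± 0.39 (adjusted p = 0.288), and 4 of the 5 MCAO values exceeded those of every sham.

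*Abca1* (ENSMUSG00000015243.4, chr4:53030787-53159895, minus strand), the transporter that loads cholesterol onto apolipoprotein E and A-I, rose on day 3 and stayed high. The control and sham libraries lay between 10.9 and 38.1 CPM. On day 3 the MCAO libraries were at 31.0, 50.6, 126.3, 77.6 and 108.0 CPM and the shams at 19.2, 28.6, 26.6 and 29.05 CPM. By day 7 they were at 78.5, 84.5, 177.3, 84.0 and 85.2 CPM and the shams at 25.7, 14.0, 17.99 and 10.9 CPM. All MCAO libraries lay above all shams at both times, and the 4 libraries of day 7 other than replicate C were close together. The log2 fold change was 1.61 ± 0.31 on day 3 (edgeR adjusted p = 0.000364) and 2.58 ± 0.33 on day 7 (adjusted p = 2.27e-06), and 2.28 on day 7 without replicate C (adjusted p = 1.4e-05).

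*Abcg1* (ENSMUSG00000024030.6, chr17:31057675-31117988, plus strand, with a short ribosomal RNA gene annotated inside it on the same strand), which exports cholesterol to lipid-bearing particles, was called at no time. Its control and sham libraries spanned 6.14 to 44.0 CPM. On day 7 the MCAO libraries were at 46.7, 28.5, 39.9, 33.6 and 18.2 CPM and the shams at 21.7, 9.33, 16.9 and 10.5 CPM, with 4 of 5 above all shams. The log2 fold change of 1.21 ± 0.35 (edgeR adjusted p = 0.0216) was not called, but DESeq2 gave 1.21 with an adjusted p of 0.00642 and called it. Against control it was 0.28 ± 0.33 (edgeR adjusted p = 0.777), since the day 7 shams had the lowest mean of the 11 groups (14.6 CPM). *Abcg1* on day 3 differed from sham by 0.14 ± 0.32 (adjusted p = 0.859).

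*Plin2* (ENSMUSG00000028494.12, chr4:86648386-86670060, minus strand), a coat protein of lipid droplets, had the largest fold change among the called genes of the list on day 3. Its control and sham libraries lay between 1.14 and 7.76 CPM. At 12 h the MCAO libraries were at 7.05, 8.25, 30.8, 20.6 and 29.8 CPM, against shams of 7.26, 2.09, 1.48 and 6.23 CPM, and at 24 h they were at 6.80, 16.4, 18.6 and 20.8 CPM, against 6.53, 3.16, 3.05 and 5.77 CPM. All but 1 MCAO library at 12 h and all at 24 h were above the shams of the same time, and the log2 fold changes of 2.16 ± 0.84 (edgeR adjusted p = 0.203) and 1.71 ± 0.90 (adjusted p = 0.581) did not pass. In the order of group means, the control, all shams and MCAO at 3 h had the 7 lowest (3.403 to 5.53 CPM) and the next was MCAO at 24 h (15.6 CPM), whose libraries did not overlap with those of the sham group at 3 h just below it.

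On day 3, *Plin2* was at 2.67, 70.04, 239.2, 82.5 and 233.1 CPM in the MCAO libraries and at 6.17, 2.77, 3.27 and 1.41 CPM in the shams. Replicate A, with 5 counts, lay among the shams, and the other 4 were above all of them. On day 7, the MCAO libraries were at 10.96, 15.8, 290.9, 16.8 and 13.8 CPM and the shams at 1.14, 4.1997, 3.82 and 7.76 CPM. The log2 fold change of *Plin2* was 5.13 ± 0.84 on day 3 (edgeR adjusted p = 2.7e-05), 5.45 without replicate A (adjusted p = 5.1e-07), 3.97 ± 0.82 on day 7 (adjusted p = 0.00127) and 1.71 on day 7 without replicate C (adjusted p = 0.128, not called). Against control on day 7 it was called at 3.68 ± 0.81 (adjusted p = 0.00413), but not without replicate C (1.42, adjusted p = 0.395) or without any 1 of the 4 control libraries (3.55 to 3.81, adjusted p from 0.0145 to 0.0287).

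*Soat1* (ENSMUSG00000026600.12, chr1:156424525-156474331, minus strand), the enzyme that esterifies cholesterol for storage, changed less than *Plin2*. In the day 7 groups, the MCAO libraries were at 62.3, 59.5, 155.3, 69.1 and 48.2 CPM and the shams at 25.7, 34.1, 40.9 and 35.1 CPM. The groups did not overlap, with a log2 fold change of 1.21 ± 0.28 (edgeR adjusted p = 0.00373), which was not called without replicate C (0.82, adjusted p = 0.0534) or without sham replicate A, B or D (1.10 to 1.22, adjusted p from 0.0126 to 0.0196). On day 3 *Soat1* was higher in 4 of 5 MCAO libraries than in any sham (log2 fold change 0.75 ± 0.27, adjusted p = 0.0799). The gene is overlapped on the other strand by a short unnamed transcript.

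*Ch25h* (ENSMUSG00000050370.4, chr19:34473778-34475164, minus strand) encodes the enzyme that makes 25-hydroxycholesterol, an oxysterol that feeds the LXR receptors. It was the gene of the list with the largest difference at 3 h, on few counts. The MCAO libraries at 3 h held 5, 14, 6, 0 and 8 counts and the shams 0, 0, 1 and 0 counts. The ratio of 33 counts to 1 was 25.8 at equal depth (95% interval 4.31 to 1048, counting error only), and 4 of 5 MCAO libraries were above all shams. The control libraries held 2, 0, 12 and 3 counts, however, and against them the log2 fold change at 3 h was 0.38 ± 1.04 (edgeR adjusted p = 0.974). The log2 fold change against sham was 4.14 ± 1.57 (adjusted p = 0.405). On day 3 the MCAO libraries held 0, 2, 53, 6 and 29 counts and the shams 1, 2, 2 and 0 counts (log2 fold change 3.84 ± 1.18, edgeR adjusted p = 0.0321), which was called without replicate A (4.15, adjusted p = 0.0097). On day 7 they held 5, 2, 40, 4 and 2 counts against 0, 0, 1 and 0 counts. The day 7 groups did not overlap, and the ratio was 46.3 (7.96 to 1863), or 13.9 (2.095 to 593) without replicate C. Fitted, the day 7 difference was 5.02 ± 1.51 (adjusted p = 0.0265, not called). A divergent noncoding gene overlaps *Ch25h* on the other strand, and the strand setting of the counting is not given in the sources used here, so that reads of the 2 cannot be told apart.

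**Figure D3:**
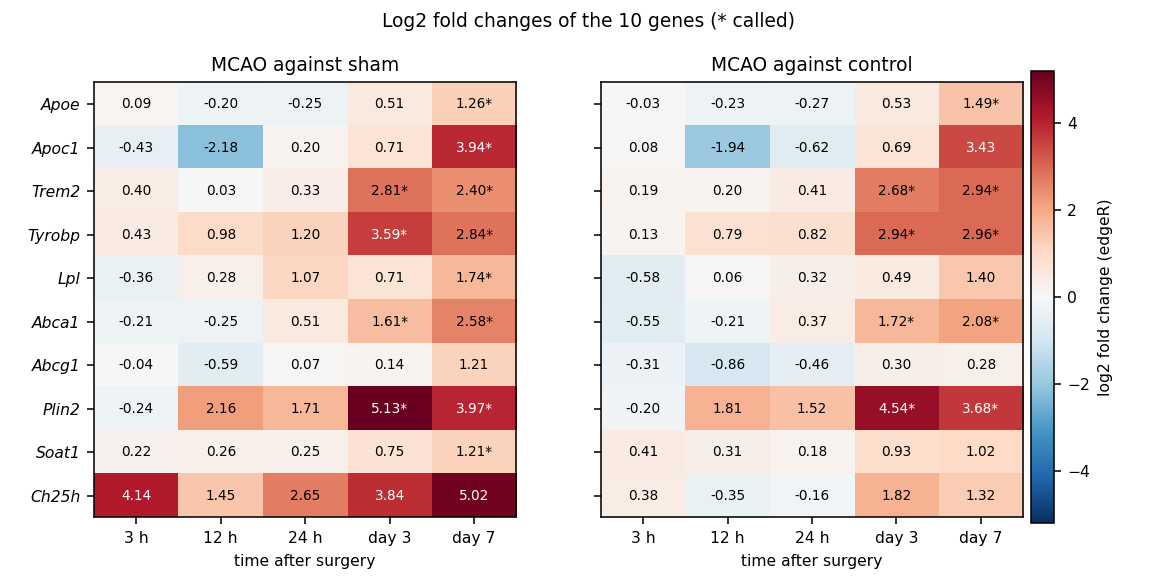
Log2 fold changes from edgeR of the 10 genes (rows) at each time (columns) in MCAO against sham (left) and against control (right), colored from blue (lower) to red (higher), with an asterisk where a gene was called. Asterisks stand only on days 3 and 7, with 4 and 8 against sham and 4 and 5 against control.

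Against control, the same 4 genes were called on day 3 as against sham (3.1% of all tested genes), and 5 genes on day 7 (*Apoe*, *Trem2*, *Tyrobp*, *Abca1* and *Plin2*, with 1.5% of all genes). With only the groups compared in the fit, *Abca1* was the 1 gene called on day 7, while *Apoe*, *Trem2*, *Plin2* and *Tyrobp* were not (adjusted p from 0.0195 to 0.0605), nor was *Abca1* on day 3 (adjusted p = 0.0134). By direction, 2.81% of all genes rose and 0.29% fell on day 3, and 1.09% and 0.416% on day 7. At 3 h, 12 h and 24 h 0 of the 10 were called by edgeR or DESeq2, with 0, 2 and 0 at an unadjusted p under 0.05 and 0.13% (0.115% higher, 0.015% lower), 0.856% (0.386%, 0.471%) and 0.28% (0.12%, 0.16%) of all genes called. Sham against control called 0 of the 10 genes at all 5 times in edgeR and DESeq2 (0.0%, 0.0351%, 0.01%, 0.0% and 0.0% of all genes, with 0.00501% higher and 0.03% lower at 12 h), and an unadjusted p under 0.05 was found for 1 gene at 3 h and 2 on day 7. The change from each time to the next in MCAO over sham was also tested as an interaction. None of the 10 genes was called in the 4 interactions by edgeR or DESeq2 (0.01%, 0.01%, 0.01% and 0.0% of all genes), so that the order of rises was not shown by a test between times. From 24 h to day 3, 5 genes had an unadjusted p under 0.05, of which *Trem2* (2.48 ± 0.74, edgeR adjusted p = 0.324) and *Tyrobp* (2.40 ± 0.73, adjusted p = 0.339) had the lowest.

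From day 3 to day 7 the interaction had an unadjusted p under 0.05 for *Apoe* (0.75 ± 0.34), *Apoc1* (3.23 ± 1.52), *Abca1* (0.97 ± 0.44) and *Abcg1* (1.07 ± 0.47), with edgeR adjusted p from 0.254 to 0.284. Without replicate C of day 7, the interaction was -1.92 for *Tyrobp* (adjusted p = 0.0456) and -3.42 for *Plin2* (adjusted p = 0.0487), and neither was called.

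Without replicate C, 2 of the 10 genes (*Abca1* and *Tyrobp*) were called on day 7 against sham, where 1.42% of all genes were called (0.718% higher and 0.703% lower), and 4 against control (*Apoe*, *Abca1*, *Trem2* and *Tyrobp*), where 0.422% were (0.306% and 0.116%). The log2 fold changes of all 10 genes against sham were above 0 with and without it. Without replicate A of day 3, *Ch25h* joined the 4 genes called against sham, and 6.79% of all genes were called (5.46% higher and 1.33% lower). Against control *Soat1* joined them, with 5.39% of all genes called (4.46% and 0.933%).

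**Figure D4:**
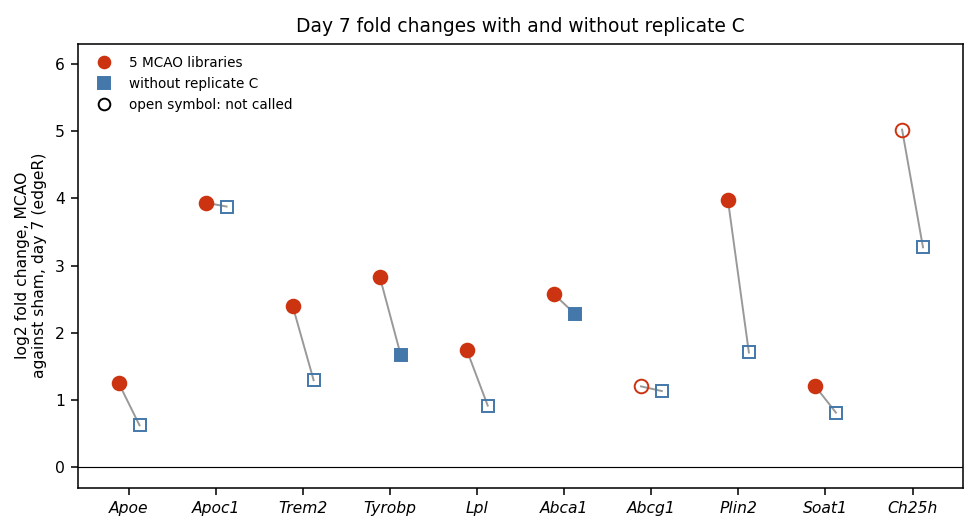
Log2 fold change of the 10 genes in MCAO against sham on day 7 with all 5 MCAO libraries (red circles) and without replicate C (blue squares), filled where the gene was called. *Plin2* moves most among the called genes, from 3.97 to 1.71, while *Apoc1* (3.94 to 3.88) and *Abca1* (2.58 to 2.28) move little.

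Markers of cells that can hold these transcripts were called on days 3 and 7, and some earlier. At 12 h the astrocyte marker *Gfap* was higher in MCAO than in sham by 2.67 ± 0.38 on the log2 scale (edgeR adjusted p = 5.6e-05) and the microglial marker *P2ry12* was lower, by -1.78 ± 0.39 (adjusted p = 0.00927), and at 24 h *Gfap* was higher by 3.16 ± 0.40. *Gfap* was the only 1 of 8 astrocyte markers called at these times, with list medians of -0.01 and -0.09. *P2ry12* was the only 1 of 8 markers of homeostatic microglia called at 12 h (list median -0.61). The sum of these 8 microglial markers reached below and above the shams (129.9 to 314.7 CPM in MCAO, 230.3 to 291.0 CPM in sham). At 3 h 0 of the 8 astrocyte markers were called (list median -0.07), but their sum was lower in all MCAO libraries (4094 to 4499 CPM) than in all shams (4886 to 4992 CPM). The median astrocyte sum was also lower in MCAO than in sham at 12 h (4517 against 5644 CPM) and 24 h (4565 against 5020 CPM), with overlap. Of 6 endothelial markers 1 fell at 12 h (*Slco1a4*). At 24 h 0 markers of homeostatic microglia, infiltrating monocytes and border macrophages were called, but each sum lay above all shams. The sums were 312.7 to 398.4 CPM against 229.7 to 264.9 CPM (microglia, list median 0.13), 78.5 to 150.9 against 34.1 to 54.0 CPM (monocytes) and 30.9 to 56.2 against 14.0 to 22.0 CPM (border macrophages). The all-myeloid sum overlapped at 24 h (178.1 to 272.3 against 121.4 to 181.1 CPM). The 5 all-myeloid markers (*Aif1*, *Csf1r*, *Itgam*, *Laptm5* and *Ptprc*) had a summed level of 107.3 to 142.6 CPM in sham and 263.2 to 1034 CPM in MCAO on day 3, where 5 of 5 rose, and of 152.8 to 240.9 CPM and 290.8 to 1067 CPM on day 7, where 3 of 5 rose. Of the 8 markers of homeostatic microglia 5 rose on day 3 and 4 on day 7, and of the 7 markers of infiltrating monocytes 4 and 3 rose. The monocyte markers summed to 37.7 to 46.4 CPM in sham and 64.1 to 1169 CPM in MCAO on day 3, and to 32.7 to 40.3 CPM and 127.5 to 4474 CPM on day 7, with 3 of 7 at 0 in all shams on day 3 and 4 on day 7. Of the 8 astrocyte markers 2 rose on day 3 and 3 on day 7, among them *Gfap*, and their summed level overlapped between sham and MCAO on day 3. On day 7 the astrocyte sum was 3727 CPM in replicate C, below all shams (4264 to 5361 CPM), and 5560 to 5838 CPM in the other 4 MCAO libraries, above all shams. Of the 6 border macrophage markers 3 rose on day 3 and 0 on day 7, and of the 6 fibroblast markers 3 and 5 rose. Of 6 neutrophil markers 2 rose at 12 h and on day 3 and 0 on day 7, of 6 endothelial markers 2 rose on day 3 and 0 on day 7, of 6 oligodendrocyte markers 0 and 1 rose, of 6 choroid plexus markers 0 and 0, and of 8 neuronal markers 1 fell on each day. Without replicate C, 2 of 5 all-myeloid, 1 of 8 microglial, 1 of 7 monocyte and 3 of 6 fibroblast markers rose on day 7. Without replicate A, 6 of 8 microglial, 5 of 7 monocyte, 4 of 6 neutrophil, 3 of 8 astrocyte and 4 of 6 fibroblast markers rose on day 3, and 1 astrocyte and 2 neuronal markers fell. The part of these cells in the changes of the 10 genes was not tested beyond the ratio that follows.

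Set against the mean of the 5 all-myeloid markers in the same library, the 10 genes differed. On day 3 *Tyrobp* was higher than the markers by a further 0.86 on the log2(CPM + 1) scale in MCAO than in sham (exact permutation test, two-sided, adjusted p = 0.0197). *Trem2* (0.20, adjusted exact p = 0.615) did not pass, and *Plin2* differed by 1.63 (adjusted exact p = 0.114), or by 2.37 without replicate A (adjusted exact p = 0.0306). *Apoe* (-1.90), *Apoc1* (-2.17), *Lpl* (-1.75), *Abca1* (-0.96), *Abcg1* (-2.25) and *Soat1* (-1.65) were lower relative to the markers on day 3 (adjusted exact p = 0.0197 for each, 0.00794 being the smallest unadjusted p that 5 against 4 libraries allow). For *Apoc1* the ratio did not pass with a pseudocount of 0.1 (-2.19, adjusted exact p = 0.178). A lower ratio is the rule here, as 93.1% of all tested genes were lower and 0.155% higher relative to these markers, with a median of -2.37. With so few splits, an adjusted p under 0.05 is reached, in either direction, only where many genes have a low p. The pass of *Tyrobp* thus rests on the many genes that were lower as well as on its own values.

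On day 7 *Apoe* was lower relative to the myeloid markers, by -0.75 (adjusted exact p = 0.0163), with 73.7% of all genes lower, 0.13% higher and a median of -1.72. This value was -0.17 in the deposited matrix (adjusted exact p = 0.249) and 0.09 with *Csf1r* alone as the reference (adjusted exact p = 0.743), so that neither its call nor, with *Csf1r*, its sign held. With *Csf1r* alone 0 of the 19970 genes passed in either direction (median -0.87), so the lost call there is not particular to *Apoe*. In the deposited matrix 16406 genes were lower (median -1.16). On the CPM scale with all the myeloid markers as reference, the other 9 genes did not pass, among them *Trem2* (0.02, adjusted exact p = 0.969), *Tyrobp* (0.42, adjusted exact p = 0.263) and *Abca1* (0.73, adjusted exact p = 0.118). *Apoc1* was higher by 1.03 without replicate C (adjusted exact p = 0.0443), a pass that likewise needed many other genes to have a low p. At 3 h, 12 h and 24 h 0 of the 10 genes passed this test in either direction, as did 0.0% of all genes. At 3 h and 12 h a gene could pass after adjustment only if many others had a low p too, so the test cannot decide there on the 10 genes alone. At 24 h, with 4 libraries in each group, the smallest p allowed is larger. Passing after adjustment would there need most tested genes to reach it.

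Within the MCAO groups, libraries with more *Apoe* also had more *Trem2*. Over the deviations of the 24 MCAO libraries from their own group means on the log2(CPM + 1) scale, Pearson's r was 0.78 (permutation p = 0.00107, adjusted over all genes 0.124) and Spearman's rho was 0.71 (permutation p = 0.00078, adjusted 0.183). Without the 2 libraries farthest in *Apoe* (replicates C and A of day 7) r was 0.61 (permutation p = 0.021). Over the 24 control and sham libraries r was 0.05 (permutation p = 0.784) and rho 0.17 (permutation p = 0.392), on a narrower range of both genes. The difference between the 2 kinds of library was not tested. In all, 34 relations of *Apoe* and *Trem2* with the other genes of the list were computed, none passed an adjusted p of 0.05, and 0.19% of all genes had a correlation with *Apoe* in the MCAO libraries at or above that of *Trem2*. The relation of *Trem2* with *Plin2* in the MCAO libraries (r = 0.69, permutation p = 0.0145) rested on 2 libraries and was 0.09 without replicate C of day 7 and replicate A of day 3. That with *Tyrobp* (r = 0.50, permutation p = 0.0585) became -0.31.

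**Figure D5:**
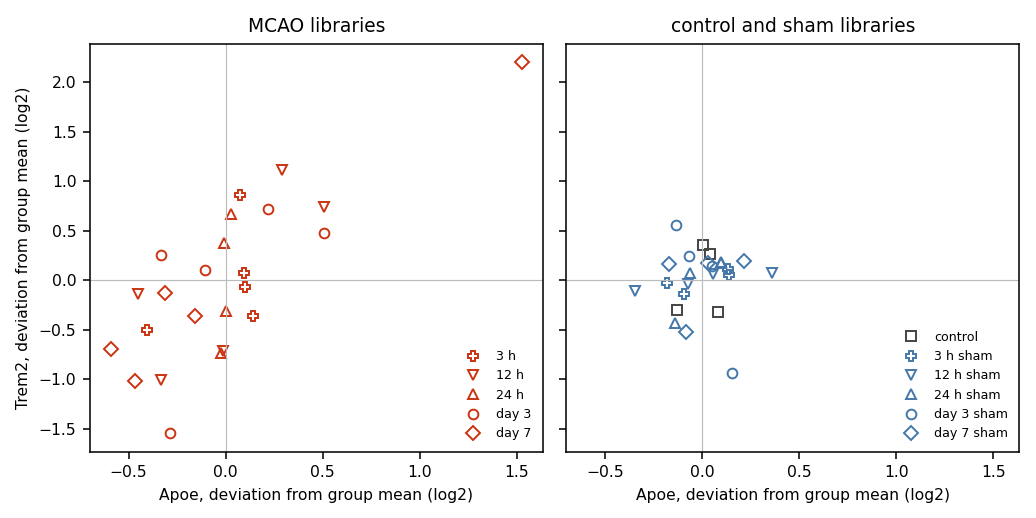
Deviation of each library from the mean of its group in *Apoe* (x axis) and *Trem2* (y axis) on the log2(CPM + 1) scale, for the 24 MCAO libraries (left, r = 0.78) and the 24 control and sham libraries (right, r = 0.05), with a symbol for each time. The point at the upper right is replicate C of day 7 (1.53 in *Apoe* and 2.20 in *Trem2*).

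The genes most like *Trem2* in their profile over the 10 operated groups were *Ctsd*, *Ctss*, *Grn*, *Ctsh* and *C1qc*, by the root mean square difference of log2 fold changes against control among 11739 genes with a mean of at least 5 CPM. The difference was 0.17 for *Ctsd*, and 4 of the 5 stayed among the nearest 5 without replicate C of day 7. For *Tyrobp* they were *C1qa* (0.26), *C1qb*, *Fcer1g*, *Ncf1* and *Ctss*, of which 4 stayed. Those of *Apoe* were *Cpq* (0.22), *Gpr137b*, *Hexa*, *Gyg* and *Acss1*, of which 0 stayed without replicate C, where *S100a1* (0.14) and *Axl* (0.16) were nearest. Those of *Abca1* were *Fli1* (0.24), *Mmp14*, *Laptm5*, *Rnase4* and *Myof*, of which 2 stayed without replicate C, and that nearest to *Plin2* was *Cd84* (0.39). For *Ch25h* no gene came closer than *Icam1* (0.98), which is not a close match.

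Among 7 lists of genes around this pathway, none had a called gene at 3 h, 12 h or 24 h in MCAO against sham. Against control none had one at 3 h or 24 h, while at 12 h *Apod* rose and *Pltp* and *Insig1* fell. The values that follow are against sham unless stated. The list of TREM2 signalling and shedding had the most on day 3, where 9 of 15 tested genes rose (median log2 fold change 3.05, against 0.01 over all genes). *Ptpn6* rose from 2.99 ± 2.00 CPM in sham (SD, n = 4) to 43.5 ± 30.8 CPM in MCAO (n = 5), a log2 fold change of 3.79 ± 0.59 (edgeR adjusted p = 1.4e-05), and it encodes a phosphatase that restrains signalling through such receptors. *Vav1*, a signalling adaptor, rose by 3.74 ± 0.74 (adjusted p = 0.000478), *Ms4a6d* by 3.73 ± 0.74 (adjusted p = 0.000452) and *Hcst*, the adaptor DAP10, by 3.38 ± 0.79 (adjusted p = 0.0032). On day 7, 3 of the 15 rose (*Plcg2*, *Adam17* and *Ptpn6*), and 0 without replicate C. Without replicate A, 10 of 15 rose on day 3. *Adam10*, the other sheddase, was not called, at 0.60 ± 0.17 on day 7 (adjusted p = 0.0209), nor was *Pik3cd* (0.19 ± 0.26, adjusted p = 0.714).

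The list of lysosomal lipid breakdown and export, not all of whose genes encode lipid-degrading enzymes, came next in number. Of its genes 6 of 15 rose on day 3 (7 without replicate A), and on day 7 6 rose and 1 fell (*Laptm4b*). *Gpnmb*, a glycoprotein of lipid-laden phagocytes, rose from 1.14 ± 0.58 CPM to 332.4 ± 680.3 CPM on day 7 (log2 fold change 8.11 ± 1.21, edgeR adjusted p = 2.1e-05), and by 4.56 without replicate C (adjusted p = 0.000492). *Ctsd* rose by 2.96 ± 0.47 on day 3 (adjusted p = 1.6e-05) and 2.75 ± 0.46 on day 7, and by 1.35 without replicate C (adjusted p = 0.00419). *Gpnmb* and *Ctsd* were the only 2 of the 15 called on day 7 without replicate C. *Lipa*, the lysosomal acid lipase, rose by 2.38 ± 0.44 on day 3 (adjusted p = 0.000173), and *Npc2*, a cholesterol carrier of the lysosome, by 1.62 ± 0.25 (adjusted p = 1.1e-05). *Psap* (-0.41 ± 0.53 on day 3) and *Scarb2* (0.18 ± 0.17) were not called.

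Fatty acid carriers and regulators of lipoprotein lipase rose in 4 of 13 tested cases on day 3 (5 without replicate A). These were *Angptl4*, an inhibitor of the lipase (3.50 ± 0.80), the scavenger receptor *Cd36* (3.86 ± 0.94), *Fabp5* (1.26 ± 0.27) and *Fabp7* (1.90 ± 0.49). On day 7 *Cd36* and *Fabp7* rose and *Fabp3* fell, and without replicate C *Fabp7* (3.16, edgeR adjusted p = 0.000563) and *Fabp3* (-0.91, adjusted p = 0.00724) were called. Of the other apolipoproteins and remodelling genes, 2 of 9 rose on both days, *Apoc2* and *Apod*. *Apod* went from 92.5 ± 6.03 CPM to 393.7 ± 156.5 CPM on day 3 (log2 fold change 2.09 ± 0.23, edgeR adjusted p = 2.2e-08) and rose by 0.96 ± 0.22 on day 7 (adjusted p = 0.00384). Without replicate C 0 of the 9 were called on day 7, *Apod* being at 0.96 (adjusted p = 0.0104). *Clu*, the other abundant apolipoprotein of astrocytes, had a log2 fold change of 0.30 ± 0.14 on day 3 (adjusted p = 0.179).

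Few receptors for apolipoprotein E were called. Of 11 genes, the scavenger receptor *Stab1* rose on day 3 (3.09 ± 0.58, edgeR adjusted p = 0.000222, joined by *Scarb1* without replicate A) and the endocytic receptor *Lrp1* on day 7 (0.69 ± 0.16, adjusted p = 0.00466), which was not called without replicate C (0.44, adjusted p = 0.0675). *Sorl1*, a sorting receptor, was at -0.65 ± 0.18 on day 7 (adjusted p = 0.0168, not called). Against control on day 7 *Stab1* rose and *Sorl1* fell, and 0 of the 11 genes were called without replicate C. Of 13 genes for LXR and cholesterol efflux, 0 were called on day 3 and 2 rose on day 7 in edgeR. They were *Srebf1*, the lipogenic factor that LXR drives (1.99 ± 0.49, adjusted p = 0.00677), and *Gpr183*, the receptor for oxysterols made from 25-hydroxycholesterol (3.53 ± 0.82, adjusted p = 0.00377), and neither was called without replicate C (adjusted p = 0.0185 and 0.0671). Of 16 genes of lipid droplets and sterol esters, 0 were called on day 3 (1, *Hilpda*, without replicate A) and 1 fell on day 7, the monoglyceride lipase *Mgll* (-0.92 ± 0.20, adjusted p = 0.00208, and -0.83 with an adjusted p of 0.0133 without replicate C). The median of that list was 0.22 on day 3 and -0.05 on day 7, near that of all genes, whereas *Plin2*, which is counted apart from it, had 5.13 and 3.97.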

How the data were processed

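Bulk 3′ RNA-seq (QuantSeq) of 48 libraries was used. Per the labels and the study's methods, the authors trimmed the reads, removed mitochondrial and ribosomal reads, aligned the rest to GRCm38 with STAR 2.5.2b and obtained gene counts by htseq-count with the Gencode vM8 annotation. Each library's deposited values are raw counts. A second deposited table, by the authors, is on a log2-like scale after size-factor normalization and variance stabilization, which was used only as an alternative. Reads that named no gene (medians of 23.5% without a feature, 0.400% ambiguous and 33.5% not unique) and spike-ins stayed out of library sizes. Columns without a sample numbered 0.

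A total above 10 counts over the libraries was required, and the 19970 genes left were fitted with edgeR 4.0.16 in R 4.3.3 (TMM, quasi-likelihood, 1 model of 11 groups), with Benjamini-Hochberg adjustment over all genes. Standard errors are the log2 fold change over the square root of F. Relative levels and correlations used log2(CPM + 1) with exact or 100000-draw permutation tests coded in numpy 2.4.6, and their p-values were adjusted over all genes in place of the planned adjustment over the 10 genes. Ranks and the intervals of count ratios came from scipy 1.17.1. The scripts were tested on simulated data.

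The 10 genes, the lists and the tests were chosen with earlier results of these data known. Named were the 10 genes, up to 4 called genes and 2 uncalled genes of each list, and the 5 most similar profiles. Genes named beyond that rule (*Tomm40*, *Fabp3*, *Laptm4b*, *Hilpda*, *Scarb1*, *Gfap*, *P2ry12*, *Slco1a4*, *Insig1*, *Adam17* and *Plcg2*) were picked after their values were seen. The alternatives were DESeq2 1.42.0, other size factors, spike-in scaling, other filters, only the groups compared, a pseudocount of 0.1, *Csf1r* alone as reference, a block for the replicate letter, and leaving out single libraries. Intervals of count ratios and floors cover counting error only.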

Additional observations from a re-analysis of the deposited data

Results flagged for a closer look

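Single libraries that stood apart from the rest of their group by Dixon's criterion were found in 15 of the 110 groups of values, where chance gives about 1 in 20. Of these, 6 were replicate C of the MCAO group on day 7, the lone high library for *Apoe* (14649 CPM, others 3369 to 4559), *Trem2* (182.64 CPM, others 18.7 to 35.6), *Tyrobp* (402.17 CPM, others 45.6 to 75.8), *Abca1* (177.29 CPM, others 78.5 to 85.2), *Plin2* (290.92 CPM, others 10.96 to 16.8) and *Ch25h* (23.797 CPM, others 1.02 to 2.88). *Trem2* was low in MCAO replicate A on day 3 (13.88 CPM, others 45.6 to 70.4) and in sham replicate C on day 7 (7.0864 CPM). *Apoe* was low in MCAO replicate C at 3 h (1589 CPM, others 2210 to 2315), and *Lpl* in sham replicate B at 12 h (23.986 CPM, others 40.8 to 44.7). The remaining 5 rest on 1 to 3 counts against 0 in the others, namely *Apoc1* in MCAO replicate D at 12 h (0.58824 CPM) and MCAO replicate A at 24 h (1.2746 CPM), and *Ch25h* in sham replicate C at 3 h (0.44818 CPM), sham replicate D at 24 h (1.0487 CPM) and sham replicate C on day 7 (0.5451 CPM).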

How the results depend on the processing

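On day 7, with only the groups compared in the fit, 2 of the 10 genes were called against sham (8 with all groups) and 1 against control (5 with all groups). Leaving out 1 library gave 2 to 8 against sham, with 2 without MCAO replicate C and 5 without sham replicate A or D, and 4 to 6 against control. The shares of all genes called in the smaller fit and without sham replicate A or D are not given. A loss particular to the 10 genes thus cannot be told there from a general loss of calls. Relative to the myeloid markers, the number higher on day 3 was 1 to 2 with 1 library left out, and on day 7 it was 0 to 1 with 1 library left out and 1 with a pseudocount of 0.1 or in the deposited matrix. The number lower on day 7 was 0 in the deposited matrix and with *Csf1r* alone, where 0 of all 19970 genes passed. With the replicate letter as a block, 0 were higher or lower on day 3 and 0 lower on day 7, a design that cannot pass. Whether the letters pair the libraries is not settled. Of 20 same-letter pairs 5 correlated above 0.1 (range -0.261 to 0.148), but pairs of different letters were not set beside them, so pairing is not excluded. In edgeR the block ended 2 calls, *Apoc1* on day 7 against sham (4.03, adjusted p = 0.0117) and *Plin2* on day 7 against control (3.06, adjusted p = 0.015). The correlation of *Apoe* with *Trem2* was 0.60 to 0.81 with 1 MCAO library left out. No called log2 fold change from edgeR changed sign in any alternative, but the day 7 value of *Apoe* relative to the myeloid markers went from -0.75 to 0.09 with *Csf1r* alone. Differences that were not called became called in 11 cases, among them *Abcg1* against sham (DESeq2 or no filter on low counts) and *Ch25h* on days 3 and 7 (no filter). The cause of these shifts was not tested. *Apoc1* and *Ch25h* rest on few counts, which limits their precision.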
